A study of Mus musculus with 8 samples.

Results

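Genes of mitochondrial and peroxisomal fatty acid oxidation were examined in the brains of mice fasted for 17 h and of fed mice. The set was chosen by name, with earlier results of these data known, and holds 40 genes. Every non-control probe whose gene name is one of these was taken, giving 54 of the 39429 non-control probes on the array. Of these probes 53, covering all 40 genes, were well above background on at least 4 of the 8 arrays and entered the test, among 26066 probes and 16014 named genes tested in all. By the place of their proteins 22 of the genes are mitochondrial and 10 are peroxisomal. The other 8 are Ppara, the acyl-CoA synthetases Acsl1, Acsl3, Acsl4, Acsl5 and Acsl6, the endoplasmic reticulum protein gene Cpt1c and the cytosolic thioesterase gene Acot1.

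Fatty acids are oxidised after they have been joined to coenzyme A. Long-chain acyl-CoA enters mitochondria through the carnitine shuttle and is shortened there step by step, with the electrons passed to the respiratory chain, while peroxisomes take up very long and branched chains and shorten them without coupling the first step to that chain. PPAR-alpha, encoded by Ppara, is the nuclear receptor that drives many of these genes in fasted liver. Brain runs mainly on glucose and, in fasting, on ketone bodies, and its capacity for fatty acid oxidation lies mostly in astrocytes.

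Total RNA of brain was read in a single Cy3 colour on 4 fasted and 4 fed arrays. The strain, the age and the number of mice behind each sample are not given in the sources used here. The p-values set the fasted minus fed difference against the spread between samples within a group. That spread may in part be technical, and the number of arrays limits every value. Arrays lay on 2 slides. Slide 1 held fasted and fed replicates 1 and 2, and slide 2 held replicates 3 and 4. On each slide the fasted arrays were in places 1 and 3 and the fed arrays in places 2 and 4, so place and fasting cannot be told apart. The share of probes well above background ran from 62.3% to 69.0%, and no spot was saturated. All 8 neuron markers examined were well above background on all 8 arrays. Values below are scaled log2 signals, which are the log2 of the processed spot intensity minus the array's 75th percentile, so that 0 is the level of the 75th percentile. A level on this scale is that of one probe and was not set against the level of another gene. A gene takes the value of its brightest kept probe. Differences are fasted minus fed, tested with limma across all kept probes, and a gene passed at an adjusted p under 0.05.

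In fasted brain 13 of the 40 genes rose, 0 fell and 27 did not pass. The rises were small, from 1.09-fold to 1.34-fold with a median of 1.18-fold. The genes that rose were Ehhadh and Acox3 of the peroxisomal cycle, Cpt1a and Cpt2 of the carnitine shuttle, Acadl, Echs1 and Acaa2 of the mitochondrial cycle, Etfdh of electron transfer, the acyl-CoA synthetases Acsl1 and Acsl3, the thioesterase gene Acot1, and Pdk2 and Ucp2, which act on fuel choice and on the inner membrane. Ehhadh, Ucp2, Acot1 and Cpt2 rose by at least 1.3-fold, and 9 of the 13 by under 1.2-fold. For Cpt2 the direction depended on the probe, as set out with its values.

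The 13 genes are 32.5% of the set. Over all 16014 genes 18.4% passed, 9.45% upward and 8.93% downward. As the set was chosen with earlier results of these data known, its shares are a description and not a test. Scaling by the median moved that split to 1363 upward and 952 downward, against 1513 and 1430 with the 75th percentile, and 12 members of the set rose under it. Counted by probe, 15 of 53 were higher and 1 lower, against 8.4% and 8.55% of all probes. The 4 fasted values lay wholly above the 4 fed values for 12 of the 40 genes, or 30%, and for 14% of all genes, and every one of these 12 was among the 13 that passed. The mean was higher in fasted brain for 31 members and lower for 9. The median log2 difference was 0.08 in the set and -0.01 over all genes. Among members that did not pass, the standard error was at its largest for Acads, 0.25, and the median standard error over the set was 0.05, on the log2 scale.

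**Figure D1:**
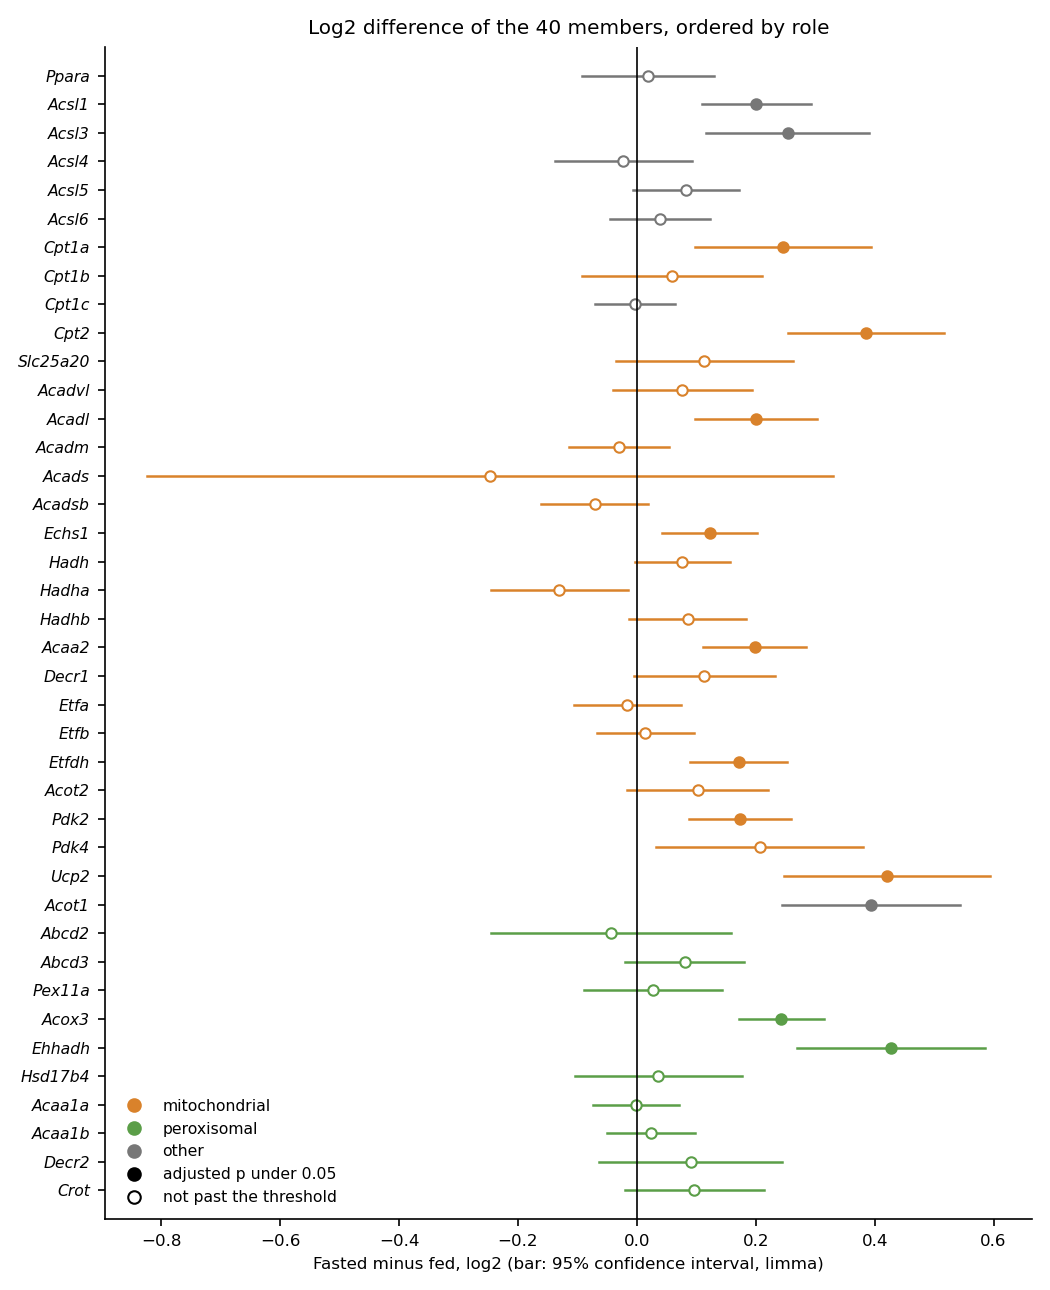
Log2 difference, fasted minus fed, of each of the 40 genes on its brightest kept probe, ordered from the regulator through activation and the mitochondrial steps to the peroxisomal steps; bars are 95% confidence intervals from limma with 4 arrays per group, colours give the place of the protein, and filled points passed at an adjusted p under 0.05. All 13 filled points lie to the right of 0, between 0.12 and 0.43.

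Ppara, the receptor, did not pass on any of its 3 probes. Its brightest probe read -0.95, -1.09, -0.97 and -1.08 on fasted replicates 1 to 4 and -1.11, -0.99, -0.99 and -1.08 on fed replicates 1 to 4. The groups overlapped throughout, with a log2 difference of 0.02 (95% confidence interval -0.09 to 0.13; adjusted p = 0.824). The other probes gave -0.05 (adjusted p = 0.485) and 0.20 (adjusted p = 0.334), the latter a dim probe with an interval from -0.11 to 0.51.

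Of the 5 long-chain acyl-CoA synthetases, which join fatty acids to coenzyme A, Acsl1 and Acsl3 rose. Acsl1, the form found on the outer mitochondrial membrane and the endoplasmic reticulum, read 1.88, 1.88, 2.03 and 1.96 in fasted and 1.73, 1.73, 1.75 and 1.74 in fed brain. Every fasted array was above every fed array and the fed arrays were nearly equal. The log2 difference was 0.20 ± 0.04 (SE, n = 4 per group; adjusted p = 0.0142), and a second probe gave 0.17 without passing (adjusted p = 0.142). Acsl3, a form of the endoplasmic reticulum and of lipid droplets, read 1.04, 0.98, 1.06 and 1.13 in fasted and 0.66, 0.77, 0.86 and 0.91 in fed brain. The groups did not overlap, with the fed arrays the more widely spread. The log2 difference was 0.25 ± 0.06 (adjusted p = 0.0249). The call was lost without any one of fasted replicates 1, 3 and 4 and fed replicate 2, where adjusted p lay between 0.0522 and 0.0648. In all it was lost under 5 of 17 alternatives. Acsl4, which prefers arachidonate, gave -0.02, Acsl5 gave 0.08 and Acsl6, a form abundant in brain, gave 0.04, with adjusted p of 0.794, 0.178 and 0.506.

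The carnitine shuttle and its relatives were covered by 5 genes. Cpt1a encodes the outer membrane carnitine palmitoyltransferase of liver type, the step that malonyl-CoA inhibits. It read -0.01, -0.04, 0.10 and -0.14 in fasted and -0.27, -0.14, -0.36 and -0.31 in fed brain. Fasted replicate 4 and fed replicate 2 met at the boundary, with -0.139 and -0.137, so that this was the one gene of the 13 whose groups overlapped. The log2 difference was 0.25 ± 0.06 (adjusted p = 0.036), or 1.19-fold with a 95% confidence interval of 1.07 to 1.31. A second Cpt1a probe, 1314 bases nearer the 5′ end of the transcript, gave 0.28 ± 0.07 (adjusted p = 0.0346) with groups that did not overlap. This probe was dim, with means of -3.78 in fasted and -4.06 in fed brain, though well above background on all 8 arrays. With the replicate number as a block the adjusted p of the brightest probe was 0.0663. The call was also lost without any one of fasted replicates 1 to 3 and fed replicates 1, 3 and 4, with adjusted p of 0.0686 to 0.0846. In all it was lost under 9 of 17 alternatives.

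The other CPT1 genes did not pass. Cpt1b, the muscle type, read -4.03, -4.06, -3.86 and -4.05 in fasted and -4.10, -3.91, -4.13 and -4.10 in fed brain, a log2 difference of 0.06 (95% confidence interval -0.09 to 0.21; adjusted p = 0.576). Its second probe was well above background on 0 of the 8 arrays and was not tested. Cpt1c, the neuronal relative whose protein lies in the endoplasmic reticulum, read 1.41, 1.38, 1.37 and 1.39 in fasted and 1.40, 1.42, 1.37 and 1.37 in fed brain. Fasted and fed values were intermingled and its log2 difference was bounded between -0.07 and 0.06 (95% confidence interval; adjusted p = 0.952). Slc25a20, the translocase that carries acylcarnitine through the inner membrane, gave 0.11 (95% confidence interval -0.03 to 0.26; adjusted p = 0.262).

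Cpt2 encodes the inner membrane carnitine palmitoyltransferase that closes the shuttle, and its 2 probes passed in opposite directions. The probe that starts at base 2286 of the transcript, at chr4:107576591-107576650 on the minus strand of mm9, read -0.26, -0.31, -0.05 and -0.26 in fasted and -0.59, -0.61, -0.60 and -0.61 in fed brain. All fasted arrays were above all fed arrays, fasted replicate 3 most of all. The log2 difference was 0.39 ± 0.06 (adjusted p = 0.00516), and without fasted replicate 3 it was 0.33 (adjusted p = 0.00318). The dim probe, nearer the 5′ end, read -4.38, -4.45, -4.46 and -4.75 in fasted and -4.26, -4.09, -3.96 and -3.78 in fed brain. Here all fasted arrays were below all fed arrays, by a log2 difference of -0.49 ± 0.12 (adjusted p = 0.0259), and the probe was well above background on 3 of 4 fasted and 4 of 4 fed arrays. That fall did not pass with normexp background correction (log2 -0.30, adjusted p = 0.0726), with quantile normalization (-0.39, 0.072), without a filter on dim probes (0.0576), with the replicate block (0.0771), or without any one of fasted replicates 2 and 4 and fed replicates 2, 3 and 4 (adjusted p of 0.0505 to 0.0603). The mean of both probes gave a log2 difference of -0.05 (adjusted p = 0.626), so the rise of Cpt2 holds for its bright 3′ probe only.

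The bases under the probes show where each reading comes from. The lines below give bases 31 to 60 of the 60-base bright probe of Cpt2 and of the probes of Acox3 and Cpt1a, members whose separate probes the results turn on, each named by the base of the transcript at which the probe starts. Capitals mark AATAAA, the polyadenylation hexamer, which was searched on the probe strand and was present in 6 of the 54 probes (11.1%) and in 12.6% of all non-control probes.
Cpt2, from base 2286: tgtttaaatagaAATAAAcccagtgttgct
Acox3, from base 3720: cttctagaaatgaatggtgtatcctggtcc
Acox3, from base 3293: tataatcaaatttgcttaattatttcctac
Acox3, from base 2108: gaactccccaattgccaaagctgatggtga
Cpt1a, from base 3941: cggagtattcctgctagtacccaagtgtga
Cpt1a, from base 2627: ctaatggataaagggatttaaatgctggtg
Of the probes shown, the bright Cpt2 probe alone holds the hexamer in these bases. The middle Acox3 probe was designed on a cDNA record of its own (AK028818) rather than on the RefSeq transcript of the other probes. Which exon or untranslated region lies under each probe was not analysed here.

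The mitochondrial cycle shortens acyl-CoA through dehydrogenases, a hydratase, a second dehydrogenase and a thiolase. Of its 11 genes, 3 rose and 0 fell, and the median log2 difference was 0.08. Acadl, the long-chain acyl-CoA dehydrogenase, read 0.07, -0.02, 0.15 and 0.08 in fasted and -0.19, -0.14, -0.11 and -0.08 in fed brain. Its groups did not overlap, and the log2 difference was 0.20 ± 0.04 (adjusted p = 0.0207), or 1.15-fold. Without any one of fasted replicates 1 and 4 and fed replicates 1 and 2 the adjusted p was between 0.053 and 0.0538. In all the Acadl call was lost under 6 of 17 alternatives. Acaa2, the mitochondrial ketoacyl-CoA thiolase, read 2.29, 2.25, 2.33 and 2.29 in fasted and 2.03, 2.16, 2.07 and 2.10 in fed brain. The fasted arrays were tightly grouped above the fed ones, with a log2 difference of 0.20 ± 0.04 (adjusted p = 0.0121). Echs1, the short-chain enoyl-CoA hydratase, read 2.06, 1.97, 2.0 and 1.98 in fasted and 1.84, 1.91, 1.86 and 1.91 in fed brain. Though its groups did not overlap, it was the closest of the 13 to the threshold, with a log2 difference of 0.12 ± 0.03 (adjusted p = 0.0477). The call was lost under 14 of 17 alternatives, among them median scaling (adjusted p = 0.0583), the replicate block (0.104) and the removal of any one of the 8 arrays (0.0699 to 0.111).

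The other 8 genes of the mitochondrial cycle did not pass. Acadvl, Hadh and Hadhb, which encode the very-long-chain dehydrogenase, the short-chain hydroxyacyl-CoA dehydrogenase and the beta subunit of the trifunctional protein, gave log2 differences of 0.08, 0.08 and 0.09. Hadha, the alpha subunit, read -1.23, -1.27, -1.23 and -1.27 in fasted and -1.06, -1.14, -1.03 and -1.25 in fed brain, a log2 difference of -0.13 (adjusted p = 0.113). The subunits of the one protein thus gave differences of opposite sign, neither past the threshold, and without fed replicate 4 Hadha was lower in fasted brain by a log2 difference of -0.17 (adjusted p = 0.034). The Hadhb probe shares a run of 22 bases with a probe of another name. Acadm, the medium-chain dehydrogenase, gave -0.03, and Acadsb, the dehydrogenase of branched short chains, gave -0.07.

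Acads, the short-chain dehydrogenase, read -4.0, -4.07, -3.00 and -4.03 in fasted and -3.76, -3.47, -3.68 and -3.20 in fed brain. Fasted replicate 3 stood above every other array while the other fasted arrays were below every fed array. With all arrays the log2 difference was -0.25 ± 0.25 (adjusted p = 0.537), and without fasted replicate 3 it was -0.50 (adjusted p = 0.0478). Decr1, the mitochondrial dienoyl-CoA reductase that handles unsaturated chains, gave 0.11 (adjusted p = 0.165) on its bright probe and -0.23 (adjusted p = 0.166) on a dim probe 1428 bases nearer the 3′ end. With slide as a block the bright probe passed (adjusted p = 0.044).

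Electrons from the acyl-CoA dehydrogenases pass through the electron transfer flavoprotein, whose subunits are encoded by Etfa and Etfb, to its dehydrogenase, encoded by Etfdh. Etfdh rose, reading 1.14, 1.08, 1.18 and 1.13 in fasted and 0.93, 0.95, 0.97 and 1.01 in fed brain. The groups did not overlap and the log2 difference was 0.17 ± 0.04 (adjusted p = 0.0169), or 1.13-fold. The flavoprotein subunits did not pass, with log2 differences of -0.02 for Etfa (95% confidence interval -0.11 to 0.07) and 0.01 for Etfb (-0.07 to 0.10).

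Thioesterases release fatty acids from coenzyme A, pyruvate dehydrogenase kinases hold back the oxidation of pyruvate, and uncoupling proteins are carriers of the inner membrane. Of the 5 such genes, 3 rose. Ucp2 read -1.27, -1.41, -1.36 and -1.57 in fasted and -1.91, -1.76, -1.72 and -1.90 in fed brain. Both groups were spread, but the lowest fasted array was still above the highest fed array, and the log2 difference was 0.42 ± 0.08 (adjusted p = 0.00976), or 1.34-fold with a 95% confidence interval of 1.19 to 1.51. Acot1, the cytosolic thioesterase, read 0.89, 0.93, 1.15 and 0.98 in fasted and 0.64, 0.66, 0.60 and 0.49 in fed brain. It was highest in fasted replicate 3 and lowest in fed replicate 4, with a log2 difference of 0.39 ± 0.07 (adjusted p = 0.00762). Acot2, its mitochondrial relative, gave 0.10 (95% confidence interval -0.02 to 0.22; adjusted p = 0.209). The Acot genes are close copies of each other. The longest run of bases shared by the Acot1 and Acot2 probes was 6, but whether a probe also reads the other transcript was not analysed here. Both values are uncertain in that respect.

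Pdk2 read 1.64, 1.66, 1.64 and 1.64 in fasted and 1.43, 1.56, 1.42 and 1.47 in fed brain. The fasted arrays were nearly equal and above all fed arrays, with a log2 difference of 0.17 ± 0.04 (adjusted p = 0.0182). Its second probe gave 0.14 (adjusted p = 0.0974), and without fasted replicate 2 the bright probe had an adjusted p of 0.0511. In all the Pdk2 call was lost under 2 of 17 alternatives. Pdk4, a PPAR-alpha target that rises in many fasted tissues, read -0.89, -0.90, -0.95 and -0.78 in fasted and -1.24, -1.15, -0.89 and -1.07 in fed brain. Only fed replicate 3 reached into the fasted range, and the log2 difference was 0.21 ± 0.08 (95% confidence interval 0.03 to 0.38; adjusted p = 0.0998). Without that array it was 0.27 (adjusted p = 0.0302).

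**Figure D2:**
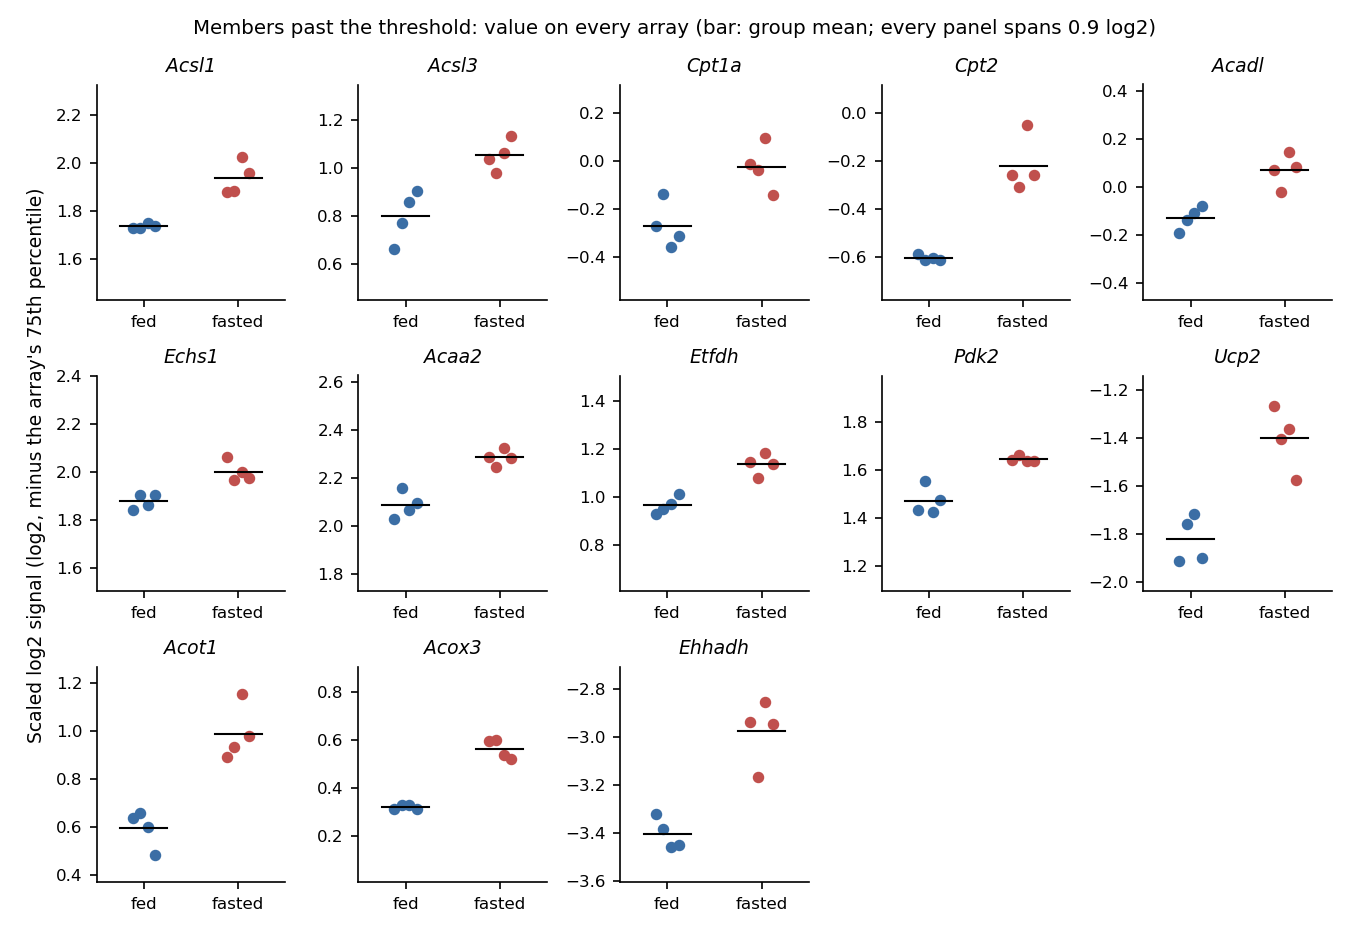
Scaled log2 signal of the 13 genes that passed, on each of 4 fed and 4 fasted arrays; points are arrays, bars are group means, and every panel spans the same range so that steps can be compared. In 12 panels the fasted points lie wholly above the fed points, and in Cpt1a the groups meet.

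Peroxisomal oxidation begins with transporters of the ABCD family and acyl-CoA oxidases, goes on with the bifunctional enzymes and ends with thiolases, after which carnitine octanoyltransferase exports the shortened chain. Of the 10 peroxisomal genes, 2 rose and 0 fell, both in the cycle itself. Ehhadh, the L-bifunctional enzyme and a classical PPAR-alpha target, read -2.94, -3.16, -2.86 and -2.95 in fasted and -3.32, -3.39, -3.46 and -3.45 in fed brain. Its groups lay well apart and its log2 difference, 0.43 ± 0.07 (adjusted p = 0.00683), was the largest of the 40 genes with the main processing. This was 1.34-fold, with a 95% confidence interval of 1.21 to 1.5. The probe was dim, and the ranking depended on the processing. Over 19 alternatives, single slides included, the difference ran from 0.24 to 0.55 for Ehhadh and from 0.33 to 0.50 for Ucp2. Hsd17b4, the D-bifunctional enzyme that performs the same reactions on the other stereoisomer, gave 0.04 (95% confidence interval -0.10 to 0.18; adjusted p = 0.73).

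Acox3, an acyl-CoA oxidase of branched chains, had 3 probes. The brightest, at base 3720 of the transcript and chr5:35956215-35956274 of mm9, read 0.59, 0.60, 0.54 and 0.52 in fasted and 0.31, 0.33, 0.33 and 0.31 in fed brain. Both groups were tight and apart, and the log2 difference of 0.24 ± 0.03 (adjusted p = 0.00327) had the smallest p of the set. The probe at base 3293 gave 0.21 ± 0.04 (adjusted p = 0.0164). The probe at base 2108, at chr5:35952411-35952470, read -0.82, -0.91, -0.68 and -0.84 in fasted and -0.84, -0.58, -0.74 and -0.69 in fed brain. These groups overlapped and the log2 difference was -0.10 ± 0.07 (adjusted p = 0.351). With the mean of the 3 probes Acox3 gave 0.12 and did not pass (adjusted p = 0.0522).

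The remaining peroxisomal genes did not pass. The thiolase gene Acaa1a gave -0.0013 (95% confidence interval -0.07 to 0.07) and Acaa1b gave 0.02 (-0.05 to 0.10). They are close copies. The longest run of bases shared by the Acaa1a and Acaa1b probes was 6, but whether a probe also reads the other transcript was not analysed here. Decr2, the peroxisomal dienoyl-CoA reductase, gave 0.09 and Crot, carnitine octanoyltransferase, gave 0.10, with adjusted p of 0.387 and 0.226. The transporter genes Abcd2 and Abcd3 gave -0.04 and 0.08. Pex11a, a peroxin of peroxisome division, read 0.88, 0.89, 1.02 and 0.88 in fasted and 0.79, 0.93, 0.89 and 0.95 in fed brain, a log2 difference of 0.03 (adjusted p = 0.747).

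Set side by side, 8 of 22 mitochondrial genes rose (36.4%) and 2 of 10 peroxisomal genes (20%), against 9.45% of all genes. Without Cpt2 the mitochondrial count was 7 of 21. It was 5 of 22 without fasted replicate 1, fasted replicate 2 or fed replicate 1, 5 with normexp background correction and 4 without a filter on dim probes. The peroxisomal count was 2 with any one array left out and 1 with the mean of a gene's probes. The median log2 difference was 0.11 over mitochondrial genes, with a range from -0.25 to 0.42, and 0.06 over peroxisomal genes, with a range from -0.04 to 0.43. The medians differed by 0.05, by 0.02 without fasted replicate 4 and by 0.03 without fasted replicate 3 or fed replicate 1. Taken on each array instead, the median mitochondrial minus the median peroxisomal deviation differed by 0.02 between the fasted and fed means, less than its standard deviation of 0.03 between arrays of one group. No test was made of this difference, since members of a set are not replicates, and the data do not place one compartment above the other beyond this description. Both compartments thus hold a few genes that rose and a majority that did not pass.

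Array by array, the median deviation of mitochondrial genes from their own means over the 8 arrays was 0.04, 0.02, 0.10 and 0.04 on fasted replicates 1 to 4 and -0.10, -0.01, -0.06 and -0.04 on fed replicates 1 to 4. For peroxisomal genes it was 0.04, 0.01, 0.07 and 0.03 in fasted and -0.07, -0.01, -0.01 and -0.09 in fed brain. All fasted arrays were above 0 and all fed arrays below 0 in both compartments, with fasted replicate 3 the highest in each and fed replicate 2 close to 0 in each. Over all genes the same median stayed between -0.0084 and 0.0145, but the scaling of each array holds that median near 0. Other small sets treated below also split around 0. The other mitochondrial genes and the astrocyte markers had the same split, and the oligodendrocyte and microglia markers the reverse.

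**Figure D3:**
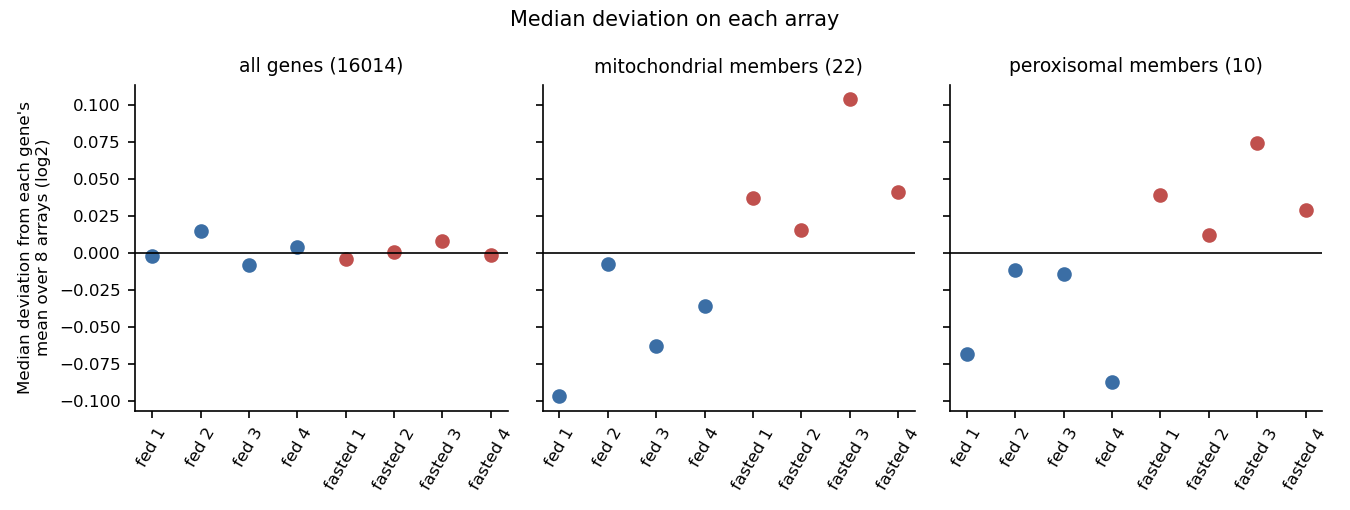
Median deviation (log2) on each of the 8 arrays, over all 16014 genes, the 22 mitochondrial and the 10 peroxisomal genes, each gene measured from its mean over the 8 arrays. In both compartments the 4 fasted arrays lie above 0 and the 4 fed arrays below it, and over all genes every array lies near 0.

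Most genes had the same direction on both slides. Within slide 1, with 2 arrays per group, the median log2 difference was 0.10 over mitochondrial and 0.04 over peroxisomal genes, and within slide 2 it was 0.12 and 0.05. The 13 genes were higher in fasted brain on each slide taken alone, by 0.14 to 0.50 on slide 1 and 0.10 to 0.55 on slide 2. For the 12 whose groups did not overlap this sign was fixed in advance, so it adds no evidence. Of all 40 genes 29 were higher and 6 lower on both slides. With 2 arrays per group limma called 0 of 40 genes on either slide, while 12 on slide 1 (10 of them higher) and 13 on slide 2 (all higher) had an unadjusted p under 0.05, as had 3711 and 2473 of all 16014 genes. With slide as a block in the full comparison 13 members rose, with Decr1 in and Echs1 out (adjusted p = 0.0526), where 20.6% of all genes passed (10.6% upward and 10% downward). With the replicate number as a block 11 members rose, where 16% of all genes passed (7.84% upward and 8.14% downward).

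More than 1 probe was kept for 11 of the members. Across the array, 2441 transcripts had kept probes at least 500 bases apart, and their 3′ probe gave a log2 difference higher than the 5′ probe by a median of 0.0013, with quartiles of -0.11 and 0.11. Of the 8 member transcripts among them, 5 had the higher difference on the 3′ probe. For Cpt2 the log2 ratio of the 3′ to the 5′ probe was 4.12, 4.14, 4.41 and 4.49 in fasted and 3.67, 3.48, 3.36 and 3.17 in fed brain. The ratio was higher on every fasted array, by 0.87, as follows from the opposite directions of its probes, and it rests in part on a probe near background, so no test of it is given. A gap of this size or more was seen in 14 of the transcripts (0.574%). For Acox3 the ratio was 1.41, 1.51, 1.21 and 1.36 in fasted and 1.15, 0.90, 1.07 and 0.999 in fed brain, higher on every fasted array by 0.34 ± 0.08 (SE; adjusted p = 0.0329 by limma over the 2441 transcripts, of which 11.1% passed, 5.57% upward). With the replicate block this did not pass (adjusted p = 0.0629). Decr1 gave -0.34 without passing (adjusted p = 0.132), and Cpt1a gave -0.03 (adjusted p = 0.833), with a 95% confidence interval of the ratio's change from -0.23 to 0.16. This test of probe ratios was chosen after the values of Cpt2 had been seen.

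**Figure D4:**
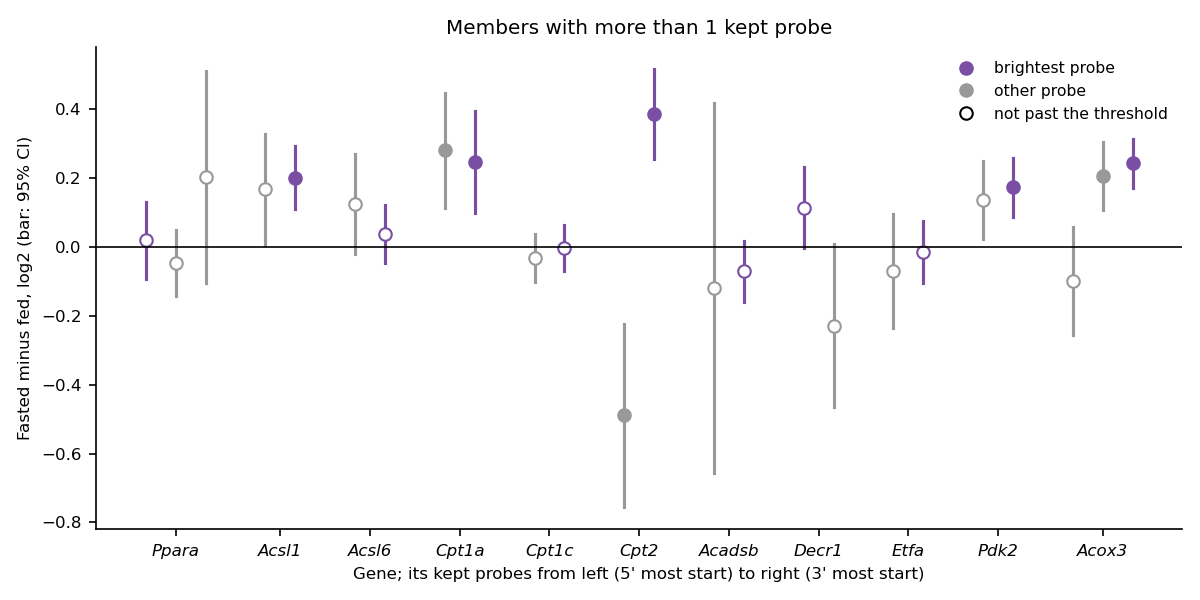
Log2 difference, fasted minus fed, of every kept probe of the 11 members with more than 1, ordered from the 5′ to the 3′ start within a gene; bars are 95% confidence intervals, the brightest probe is purple and filled points passed. The filled Cpt2 points lie on opposite sides of 0, at -0.49 and 0.39, and the 5′ probe of Acox3 lies at -0.10 while its others lie above 0.2.

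Promoter windows of 250 bases before to 50 after the gene start, from RefSeq on GRCm38.p6, were found for 35 of the 40 genes, 40 windows in all. They were searched on both strands for the half-site AGGTCA and for the direct repeat bound by PPAR and RXR, which is AGGTCA followed by any base N and AGGTCA again and so includes the half-site. The repeat was in 0 of 40 windows and in 0.0396% of all 32851 windows. The half-site was in 6 of 40 (15.0%) and in 16.3% of all windows. The genes with it were Acadm, Acadvl, Acsl6, Cpt1a, Cpt1c and Echs1, of which Cpt1a and Echs1 rose. The 250 bases before the start of Cpt1a are at chr19:3323051-3323300 on the plus strand of GRCm38.p6. They are shown because this gene of the regulated step rose on both probes, of which the 5′ one is dim. Capitals mark the half-site as it reads on this strand.
Cpt1a, 250 bases upstream: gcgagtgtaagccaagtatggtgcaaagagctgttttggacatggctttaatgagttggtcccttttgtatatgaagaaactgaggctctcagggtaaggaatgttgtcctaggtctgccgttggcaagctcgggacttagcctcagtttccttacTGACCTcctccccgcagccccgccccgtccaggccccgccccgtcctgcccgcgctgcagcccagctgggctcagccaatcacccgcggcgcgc
A match describes letters only, and the windows leave out more distant sequence.

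Other genes of the pathway were read from lists drawn up by function, to be set against the 9.45% of all genes that rose and the 8.93% that fell. Of 19 other genes of mitochondrial fatty acid oxidation tested 5 rose and 0 fell, with a median log2 difference of 0.06. They were Eci2, an enoyl-CoA isomerase (0.40 ± 0.04, adjusted p = 0.00167), Acat1, the acetoacetyl-CoA thiolase (0.26, 0.00396), Ucp3 (0.63, 0.00865), Ivd, isovaleryl-CoA dehydrogenase (0.31, 0.0175), and Mlycd, malonyl-CoA decarboxylase (0.23, 0.0193). Of 21 other peroxisomal enzymes and transporters 3 rose and 2 fell, near the shares over all genes, with a median of 0.03. Pecr, the trans-enoyl-CoA reductase, and Pxmp2, a membrane channel, rose by 0.25 (adjusted p = 0.00682) and 0.33 (0.0166), Nudt7, a coenzyme A hydrolase, rose by 0.17 (0.0419), and Pmvk, phosphomevalonate kinase, and Agps, an enzyme of ether lipid synthesis, gave -0.11 (0.0379) and -0.12 (0.0498). The calls of Nudt7, Pmvk and Agps did not hold with the replicate block (adjusted p of 0.0787 to 0.0831). With normexp background correction these calls and those of Ivd and Mlycd did not hold (adjusted p of 0.0628 to 0.142). With the mean of its probes Agps gave -0.02 (adjusted p = 0.801).

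Of 16 peroxins, the proteins that build peroxisomes, 2 rose and 1 fell, again near the shares over all genes, with a median of 0.08. Pex14 of the import pore and Pex26 of the export complex rose by 0.24 (adjusted p = 0.0278) and 0.13 (0.0382), and Pex6, the ATPase that Pex26 anchors, gave -0.27 (0.00343). With the replicate block Pex26 did not pass (adjusted p = 0.0635). Of 13 PPAR and coactivator genes 1 rose and 1 fell, near the shares over all genes. Ppargc1a, the coactivator PGC-1alpha, rose by 0.26 ± 0.04 (adjusted p = 0.00776), and Rxrg, a partner receptor of PPARs, gave -0.22 ± 0.04 (0.00797). Ppard and Pparg gave -0.10 and 0.02 and did not pass (adjusted p of 0.2 and 0.809).

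Of 11 PPAR-alpha target genes outside oxidation 4 rose and 1 fell, with a median log2 difference of 0.03, and the rises of some reached further than those of the 40 genes. Angptl4, an inhibitor of lipoprotein lipase, gave 1.2 ± 0.19 (adjusted p = 0.00641), Plin5, a lipid droplet protein that docks to mitochondria, 0.66 ± 0.11 (0.00762), and Cidea, another droplet protein, 0.21 ± 0.04 (0.00958). Slc27a1, a fatty acid transport protein, also gave 0.21 (adjusted p = 0.0169). The one that fell was Fabp7, the fatty acid binding protein of radial glia and astrocytes, at -0.74 ± 0.21 (adjusted p = 0.0497, and 0.0213 to 0.109 over 17 alternatives). The largest log2 difference among the 40 genes was 0.43 with the main processing. With normexp background correction Plin5 gave 0.39 (adjusted p = 0.0292) and Angptl4 gave 1.17 (0.0064).

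**Figure D5:**
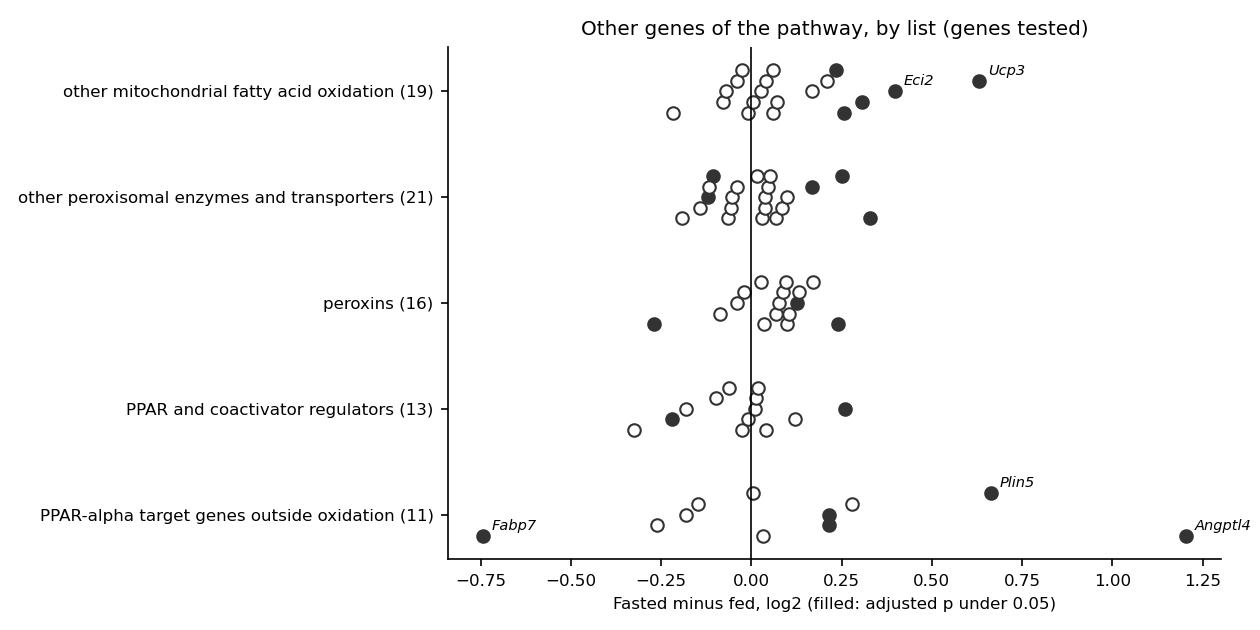
Log2 difference, fasted minus fed, of the tested genes in 5 lists of other pathway genes; each point is a gene on its brightest kept probe, filled where the adjusted p was under 0.05, and filled genes beyond 0.35 in size are named. Angptl4 lies above 1 while most peroxisomal genes and peroxins lie within 0.2 of 0.

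Cell type markers moved as well, to be set against the 9.45% of all genes that rose and the 8.93% that fell. In bulk tissue fewer cells of a type and less RNA per cell cannot be told apart. Of 8 astrocyte markers 2 rose, Gjb6 by 0.57 and Slc1a2 by 0.32 (log2), 1 fell, Aqp4 with -0.41, and 5 did not pass. The summed astrocyte marker signal, in multiples of the array's 75th percentile, was 39.9 to 40.8 on fasted and 32.9 to 36 on fed arrays. Without Gjb6 and Slc1a2 it was 20.2 to 21.4 and 19.9 to 20.2, so most of the gap lay in these markers. They were left out because they rose, after their values were seen, while Aqp4, which fell, stayed in the sum. The median deviation of the 8 markers was 0.02 to 0.10 on fasted and -0.05 to -0.03 on fed arrays. Of 8 microglia markers Aif1, Csf1r, P2ry12 and Tmem119 fell and 0 rose, with sums of 45.4 to 50.4 in fasted and 47.5 to 51.9 in fed brain. Itgam was the brightest of the 8 and was left out after its values were seen. Without it the sums were 18.6 to 21.2 and 22.1 to 23.9 and did not overlap. Over all 8 microglia markers, Itgam included, the median deviation was -0.18 to -0.05 against 0.07 to 0.17, also without overlap. Of 7 oligodendrocyte markers Mag and Cnp fell and 0 rose, with sums of 48.1 to 59.5 and 50.7 to 60.7 and median deviations of -0.10 to -0.03 against 0.05 to 0.12. Of 8 neuron markers none passed. With limma 2 of them had an unadjusted p under 0.05, as had 5511 of all 16014 genes. The sums of neuron markers were 172 to 180 in fasted and 165 to 173 in fed brain. Their median deviation was -0.006 to 0.058 on fasted and -0.070 to -0.009 on fed arrays, without overlap. Among endothelial markers Slco1a4 rose and Cdh5 and Tek fell, among those of choroid plexus Clic6 rose and Kcnj13 fell, and among those of blood cells Ptprc fell, with overlapping sums of 18 to 20.8 against 18.4 to 20.2, 37.7 to 41.4 against 38.2 to 43.3, and 36.6 to 61.6 against 37.1 to 62.4. The median deviation of the endothelial markers was -0.095 to 0.006 on fasted and 0.0305 to 0.121 on fed arrays, without overlap. For the choroid plexus and the blood cell markers it overlapped. Median scaling ended 4 of the 15 marker calls, those of Csf1r, P2ry12, Cnp and Cdh5 (adjusted p of 0.0543 to 0.145). No marker was below background, as every one measured was well above it on all 8 arrays. The part of these markers in the rises of the 13 genes was not tested.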

How the data were processed

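Spot intensity values were deposited by the authors for 8 single-colour arrays, extracted and detrended per the file headers by Feature Extraction, version 11.0.1.1 there and 10.10.1.1 in the submitters' processing notes. The array design uses mm9. The deposited series table holds a ratio, the signal over the array's 75th percentile divided by a per-probe constant of unknown baseline (spread over arrays 0.000179, log2; column medians 0.97 to 1.02), and served as an alternative.

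From the log2 of each processed signal its array's 75th percentile (1651 to 1944 in intensity) was subtracted. Control spots and 128 to 217 outlier spots per array were left out. Spots of a probe were averaged. Probes were kept if at least 0.5 of their spots were well above background on at least 4 of 8 arrays. Names matched RefSeq symbols or unique synonyms for 22267 genes. The test was limma 3.58.1 (R 4.3.3) on fasted minus fed, two-sided, with Benjamini-Hochberg adjustment over kept probes, after the procedure was tested on simulated data. All 40 members are named, with values on every array for those past the threshold, for Ppara, Pdk4 and the CPT genes, and where probes passed in opposite directions; other lists give up to 4 genes that passed, by smallest p. The values of Acads, Hadha, Pex11a and the Acox3 probe at base 2108, and Agps, Fabp7, Mlycd, Ppard, Pparg and the markers named, were added after they had been seen. Some list genes and a probe sequence are not reported here. The members and lists were chosen with earlier results of these data known. Deviations of same-numbered fasted and fed arrays correlated at 0.18, 0.28, 0.29 and 0.18. Fasted and fed arrays of one slide with different numbers correlated at 0.13 and 0.27 on slide 1 and 0.05 and 0.11 on slide 2. No label pairs the samples, and a pairing by replicate number cannot be told apart from a shared slide and neighbouring position. Alternatives covered scaling, background correction, filters, probe choice, slide, replicate block and each array left out.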

Additional observations from a re-analysis of the deposited data

Results flagged for a closer look

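In 4 of 86 group values checked, 1 array lay far from the other 3 of its group, measured by its gap to the nearest array over the whole range. Chance does this in about 1 in 20 groups, so this is near that rate. Acads was -3.00 on fasted replicate 3 where the others of its group averaged -4.03. Cpt1b was -3.86 on fasted replicate 3 against -4.05, and -3.91 on fed replicate 2 against -4.11. Pex11a was 1.02 on fasted replicate 3 against 0.88. None of these genes passed the test with all arrays. Fasted replicate 3 accounts for 3 of the values, each the highest of its group.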

How the results depend on the processing

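Of 13 genes that rose, Acaa2, Acot1, Acsl1, Ehhadh, Etfdh and Ucp2 passed under all 17 alternatives that used both slides, and 7 lost the call at least once. The call was lost under 14 of them for Echs1, 9 for Cpt1a, 6 for Acadl, 5 for Acsl3 and 2 for Pdk2. For Cpt2 and for Acox3 it was lost under 1. Over the 17 alternatives, 220 of 221 differences were positive, and the exception was Cpt2 with the mean of its probes, at -0.0517. Leaving out an array could not turn the sign of the 12 genes whose groups did not overlap. Without a filter on dim probes 8 genes, 4 mitochondrial genes and 9 probes passed, against 13, 8 and 16. Normexp background correction left 5 mitochondrial genes, and the mean of probes left 1 peroxisomal gene, Ehhadh. Each slide alone gave 0 genes, 0 mitochondrial genes, 0 peroxisomal genes and 0 probes with limma, where 16 of the 53 member probes on each slide, and 22.1% and 15.4% of all probes, had an unadjusted p under 0.05. With 1 array left out 9 to 12 genes passed, 5 to 7 of them mitochondrial and 2 peroxisomal, with 1 fall each without fasted replicate 3 (Acads) and fed replicate 4 (Hadha). Over all genes 6.07% to 7.77% then rose. The 5 mitochondrial genes came without fasted replicate 1, fasted replicate 2 or fed replicate 1. With the replicate block 11 genes, 6 mitochondrial genes and 13 probes passed. That block ended the calls of Cpt1a and Echs1 and of the dim Cpt2 probe, and changed no other call of a named member. Of 20 other pathway genes that passed 16 did so with that block and 13 to 16 with 1 array left out, and of 15 markers 15 and 10 to 13; these alternatives were added after seeing the data. The compartment medians differed by 0.02 to 0.08 over all settings. Over all genes 954 were higher and 967 lower with normexp, and 890 and 836 without a filter.

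Each group has 4 arrays. Dim probes such as those of Acads and Cpt1b and the 5′ probes of Cpt1a and Cpt2 lie near background, where readings are least precise.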
